A study of Mus musculus with 24 samples.

Results

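The comparison described here is between GPR35-deficient (KO) and wild-type (WT) macrophages that had both received lysophosphatidic acid (LPA), read across all 11590 genes of the deposited count table. It rests on 8 of the 24 libraries of the series, 4 labelled KO with LPA and 4 labelled WT with LPA, chosen by their labels and not by any measured value. The cells were bone marrow-derived macrophages from male C57BL/6 mice, grown for 7 days with the growth factor M-CSF and then lysed after 4 h with 10 µM LPA. The genotype label reads only WT or KO, and how the allele was made is not given in the sources used here. The other pairs of groups of the same genotypes served as reference: 4 KO and 4 WT libraries of untreated cells, and 4 KO and 4 WT libraries of cells given 10 ng/mL lipopolysaccharide (LPS) for 4 h. The labels number the replicates 1 to 4 and do not say whether they came from separate animals. The edgeR p-values therefore measure a spread between libraries, which may be technical. That spread was estimated from all 24 libraries together, not from these 8 alone.

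GPR35 is a G protein-coupled receptor found on macrophages and on cells of the gut lining, and lysophosphatidic acid is one of several molecules proposed to activate it. LPA is a small signalling lipid made outside cells by the enzyme autotaxin, and a family of dedicated receptors (the LPAR proteins) passes its signal to several G proteins. Macrophages turn danger signals into transcription mainly through NF-kB, which drives cytokine and chemokine genes, and through type I interferon, which drives antiviral genes by way of STAT and IRF factors. LPS acts through another receptor, TLR4, and is the standard strong stimulus for both routes.

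The KO libraries with LPA were shallower than the WT ones, at 15557011 to 18041483 counts against 31985119 to 41398499 (exact two-sided permutation p = 0.0286, the smallest that 70 arrangements allow). The KO libraries were read on 1 lane and the WT libraries on 2 lanes, so depth, lane and genotype cannot be told apart by design. The tests between genotypes, and the list calls and medians from them, were therefore also computed on counts thinned at random to 15167683 per library. No thinned version is given of the LPA effects within a genotype, the summed levels, the counts without overlap or the motif shares. Among the WT libraries, replicate 3 stood apart: it was the WT library nearest to the KO libraries in 74.5% of the genes called lower and in 74.0% of those called higher in KO. Values without it are given where it matters. The macrophage label was checked on abundant markers. Lyz2, the lysozyme gene of myeloid cells, averaged 23836 CPM in WT and 21758 CPM in KO, and Csf1r, the M-CSF receptor gene, 4819 CPM in WT and 4754 CPM in KO. Both belong to a list of 24 identity genes, described below, of which 8 were lower and 4 higher in KO. Adgre1 of that list averaged 3345 CPM in WT and 2700 CPM in KO.

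The targeted transcript was nearly gone. Gpr35 (chromosome 1, 92948052 to 92986391, GRCm38.p6) had 9 counts summed over the 4 KO libraries with LPA and 331 counts over the 4 WT libraries, so 5.88% of the WT level remained after scaling by library totals. The log2 difference was -4.14 ± 0.41, edgeR adjusted p = 2.1e-07, beside a difference in untreated cells of -4.20. The change of that difference with LPA was not called (0.06 ± 0.88, edgeR adjusted p = 0.972).

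With LPA present the 2 genotypes differed across much of the transcriptome. Of 11590 genes, 5830 passed edgeR's test after Benjamini-Hochberg adjustment at 0.05 (50.3%) and are termed called, 2823 higher in KO (24.4%) and 3007 lower (25.9%). Most of these differences were small: the median size among the called genes was 0.39 on the log2 scale, and 549 genes (4.74%) differed at least 2-fold. Among those large differences the lower genes prevailed, with 346 lower (2.99%) and 203 higher (1.75%). In 4218 genes (36.4%) the 4 KO libraries did not overlap with the 4 WT libraries. On thinned counts 4820 genes were called, 4677 of them among the 5830 and all 4677 in the same direction. Without WT replicate 3 the count was 6624, and 806 genes then differed at least 2-fold.

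The balance of higher and lower genes depended on the scaling, while the medians of the NF-kB, chemokine, interferon and sterol lists described below stayed negative under every scaling. TMM scaling, which assumes that most genes do not differ, put 48.4% of the called genes on the higher side. Scaling by library totals alone called 4196 genes higher and 2026 lower (67.4% higher) and moved the median of all genes from 0.01 to 0.11. Differences of about 0.1 or less are relative to that choice.

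Without LPA few genes separated the genotypes. In untreated cells edgeR called 1 gene, Gpr35 itself (0.00863%), DESeq2 also called 1, and 314 genes (2.71%) had an unadjusted p below 0.05. With LPS, 330 genes were called (2.85%), 80 higher (0.69%) and 250 lower (2.16%), and 7 of them (0.0604%) differed at least 2-fold. This count depended on the fit and on single libraries. It was 0 when only the 8 LPS libraries were fitted, with the replicate number as a block. The block, the smaller set of libraries and the fewer residual degrees of freedom cannot be told apart in that fit. With DESeq2 the count was 581, without WT replicate 3 of the LPS group 65 and without WT replicate 1 of that group 577. The median absolute difference over all genes was 0.22 with LPA, 0.05 untreated and 0.10 with LPS. Tested gene by gene, the genotype difference with LPA departed from the untreated one in 3301 genes (28.5%) and from the one with LPS in 2736 (23.6%). Of the 5830 genes called with LPA, 3267 (56.0%) were also called for the departure from the untreated difference, in the same direction.

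**Figure D1:**
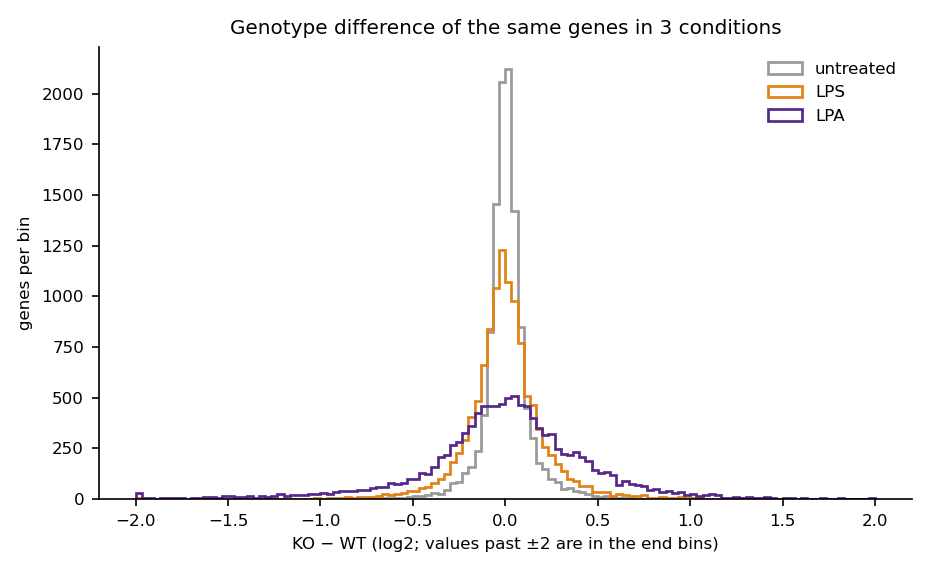
Histograms of the KO minus WT log2 difference of the same 11590 genes (x axis) in untreated, LPS-treated and LPA-treated cells, with the number of genes per bin on the y axis. The LPA curve is the widest: the median absolute difference was 0.22 with LPA, 0.10 with LPS and 0.05 in untreated cells.

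**Figure D2:**
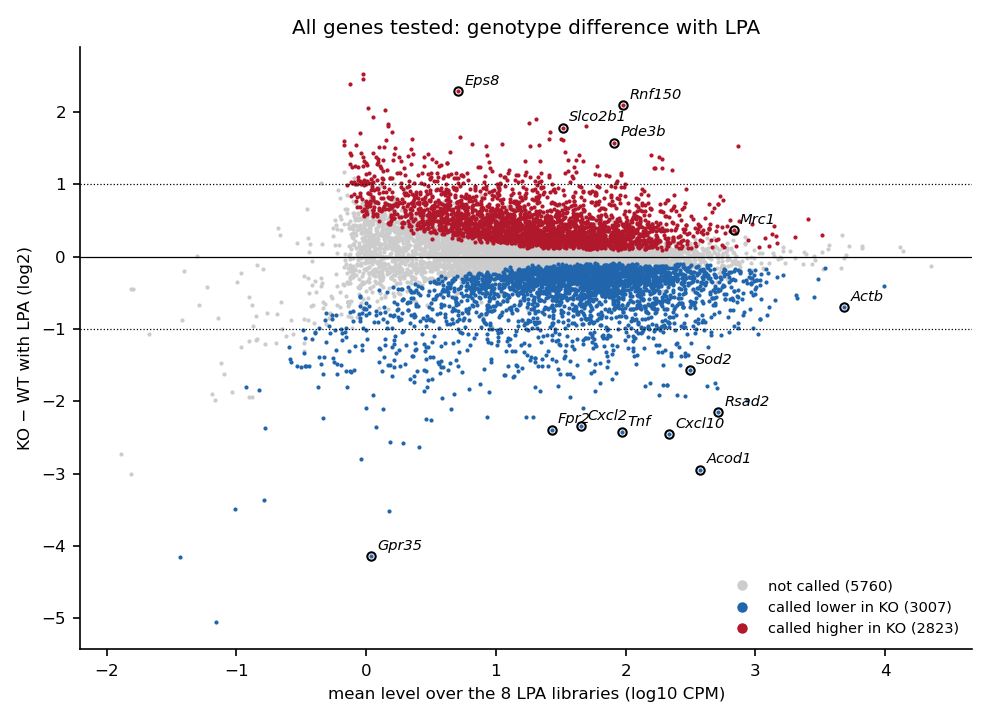
Each point is 1 gene, with its mean level over the 8 LPA libraries (log10 CPM, x axis) and its KO minus WT log2 difference with LPA (y axis). Blue points are the 3007 genes called lower and red points the 2823 called higher in KO, grey points were not called, and dotted lines mark 2-fold differences. The long tail is on the lower side, with Acod1, Cxcl10, Tnf and Cxcl2 among abundant genes.

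Inflammatory genes led the deficits in KO. Among called genes with at least 2 CPM on average over the 8 libraries and no overlap between the groups, the 12 largest deficits and the 12 largest excesses are described. Separation of the groups in these genes was thus a condition of the choice, not a result. That floor leaves out rarer genes with larger fitted differences in both directions. On the lower side, Lipg, a lipase gene described below, had log2 -3.52 at means of 2.75 CPM in WT and 0.233 CPM in KO. On the higher side, Dkk2, which encodes a secreted Wnt modulator, had log2 2.46 at means of 0.292 CPM in WT and 1.61 CPM in KO. Levels are given in CPM, counts scaled to library size with TMM factors, in replicate order, and differences as log2 ± standard error. Acod1 (chromosome 14, 103047012 to 103056573), which encodes the enzyme that makes the immunometabolite itaconate, was at 821, 943, 336 and 567 CPM in WT and at 95.8, 82.1, 73.2 and 95.5 CPM in KO. No KO library came near the lowest WT library, replicate 3. The difference was -2.94 ± 0.23, edgeR adjusted p = 1.05e-08, which is 7.69-fold lower. Tnf (chromosome 17, 35199367 to 35202007), the gene of the cytokine TNF, was at 195, 204, 78.5 and 149.6 CPM in WT and at 28.1, 34.9, 25.2 and 29.3 CPM in KO. WT replicate 3 was again the lowest of its group and still above every KO library, and the difference was -2.42 ± 0.23, edgeR adjusted p = 1.22e-07. Cxcl10 (chromosome 5, 92346638 to 92348889), a chemokine gene induced by interferon, had 415, 457, 262 and 340.0 CPM in WT against 87.1, 65.8, 44.7 and 70.9 CPM in KO (-2.46 ± 0.22, edgeR adjusted p = 5.05e-08). The groups lay far apart and did not overlap.

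Cxcl2 (chromosome 5, 90903899 to 90905938), which encodes a chemokine that draws neutrophils, was at 103, 106, 30.6 and 63.7 CPM in WT and at 10.5, 22.7, 14.8 and 12.3 CPM in KO (-2.34 ± 0.33, edgeR adjusted p = 1.42e-05). Even the lowest WT value exceeded the highest KO value. The formyl peptide receptor genes, whose proteins sense bacterial and mitochondrial peptides, were lower together. Fpr2 (chromosome 17, 17887824 to 17893952) was at 36.3, 51.4, 37.03 and 55.98 CPM in WT and 10.5, 4.86, 8.37 and 10.5 CPM in KO (-2.39 ± 0.20, edgeR adjusted p = 2.63e-08). Its neighbour Fpr1 (chromosome 17, 17876471 to 17883939) was at 13.1, 18.8, 9.46 and 15.5 CPM in WT and 3.07, 1.81, 4.04 and 3.14 CPM in KO (-2.22 ± 0.23, edgeR adjusted p = 3.2e-07). Neither gene had overlapping groups. Cd69 (chromosome 6, 129267324 to 129275375), an early activation marker, was tight within both groups, at 29.2, 38.3, 26.4 and 32.6 CPM in WT and 6.39, 7.46, 5.35 and 7.99 CPM in KO (-2.22 ± 0.16, edgeR adjusted p = 2.92e-09).

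Ak4 (chromosome 4, 101416478 to 101467771), which encodes a mitochondrial adenylate kinase, was a low transcript at 4.81, 6.59, 2.56 and 3.76 CPM in WT and 0.990, 0.339, 0.681 and 0.809 CPM in KO (-2.63 ± 0.32, edgeR adjusted p = 1.2e-06). Nos2 (chromosome 11, 78920787 to 78960226), the inducible nitric oxide synthase gene, was at 8.04, 6.51, 1.86 and 4.58 CPM in WT and 1.04, 1.47, 0.730 and 1.24 CPM in KO (-2.26 ± 0.48, edgeR adjusted p = 0.00068). WT replicate 3 was close to the KO libraries for Nos2 without overlapping them. The remaining genes of the 12 largest non-overlapping deficits were Lad1, a filament-anchoring protein gene (-2.25 ± 0.38), Kdr, which encodes a VEGF receptor (-2.22 ± 0.17), and Rsad2, which encodes the antiviral enzyme viperin (-2.15 ± 0.20). Each of the 12 kept its direction and its call under every alternative that was run. They were chosen for large, non-overlapping differences in these same libraries, so this stability was largely set by the choice.

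The 12 largest excesses in KO, chosen the same way, were genes of other kinds. Eps8 (chromosome 6, 137477245 to 137649397), whose protein caps actin filaments, was at 1.44, 1.13, 2.92 and 1.52 CPM in WT and 10.1, 7.24, 7.93 and 8.80 CPM in KO (2.29 ± 0.23, edgeR adjusted p = 1.22e-07). Rnf150 (chromosome 8, 82863266 to 83091271), a gene of the RING finger ubiquitin ligase class, was at 27.4, 20.98, 64.05 and 33.5 CPM in WT and 162, 161, 144 and 153 CPM in KO (2.09 ± 0.21, edgeR adjusted p = 2.41e-07). The 4 KO libraries of Rnf150 sat close together, and WT replicate 3 was the highest of a scattered WT group. Slco2b1 (chromosome 7, 99657804 to 99711340), which encodes an organic anion transporter, had 12.6, 11.5, 19.3 and 15.8 CPM in WT and 58.1, 53.8, 39.02 and 52.7 CPM in KO (1.78 ± 0.16, edgeR adjusted p = 4.09e-08). Abcd2 (chromosome 15, 91145871 to 91192007), a peroxisomal fatty acid transporter gene, had 7.13, 8.17, 21.9 and 11.99 CPM in WT and 41.9, 38.6, 36.1 and 45.3 CPM in KO (1.73 ± 0.23, edgeR adjusted p = 6.2e-06). In all 4 genes the groups stayed apart.

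Angptl4, an inhibitor of lipoprotein lipase, was at 9.48, 5.11, 9.77 and 6.91 CPM in WT and 34.1, 24.9, 28.3 and 25.6 CPM in KO (1.85 ± 0.19, edgeR adjusted p = 1.66e-07). Pde3b, a phosphodiesterase that degrades cyclic AMP, was at 35.6, 34.99, 64.2 and 29.6 CPM in WT and 156, 90.6, 125 and 118 CPM in KO (1.58 ± 0.23, edgeR adjusted p = 1.87e-05). Deptor, an inhibitor of the kinase mTOR, was at 10.7, 9.61, 28.2 and 13.4 CPM in WT and 51.9, 38.8, 48.6 and 51.7 CPM in KO (1.63 ± 0.24, edgeR adjusted p = 1.57e-05). In Deptor as in most of these genes, WT replicate 3 was the WT library nearest to KO. The receptor gene Gpr34 (1.63 ± 0.36) and Fam214a (1.91 ± 0.35) depended on that library: without WT replicate 3 their differences were 2.34 and 2.60. The other large excesses were Arrdc3, an arrestin-domain protein gene (1.81 ± 0.22), and the transcription factor genes Sox4 (1.66 ± 0.24) and Zbtb16 (1.63 ± 0.28).

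**Figure D3:**
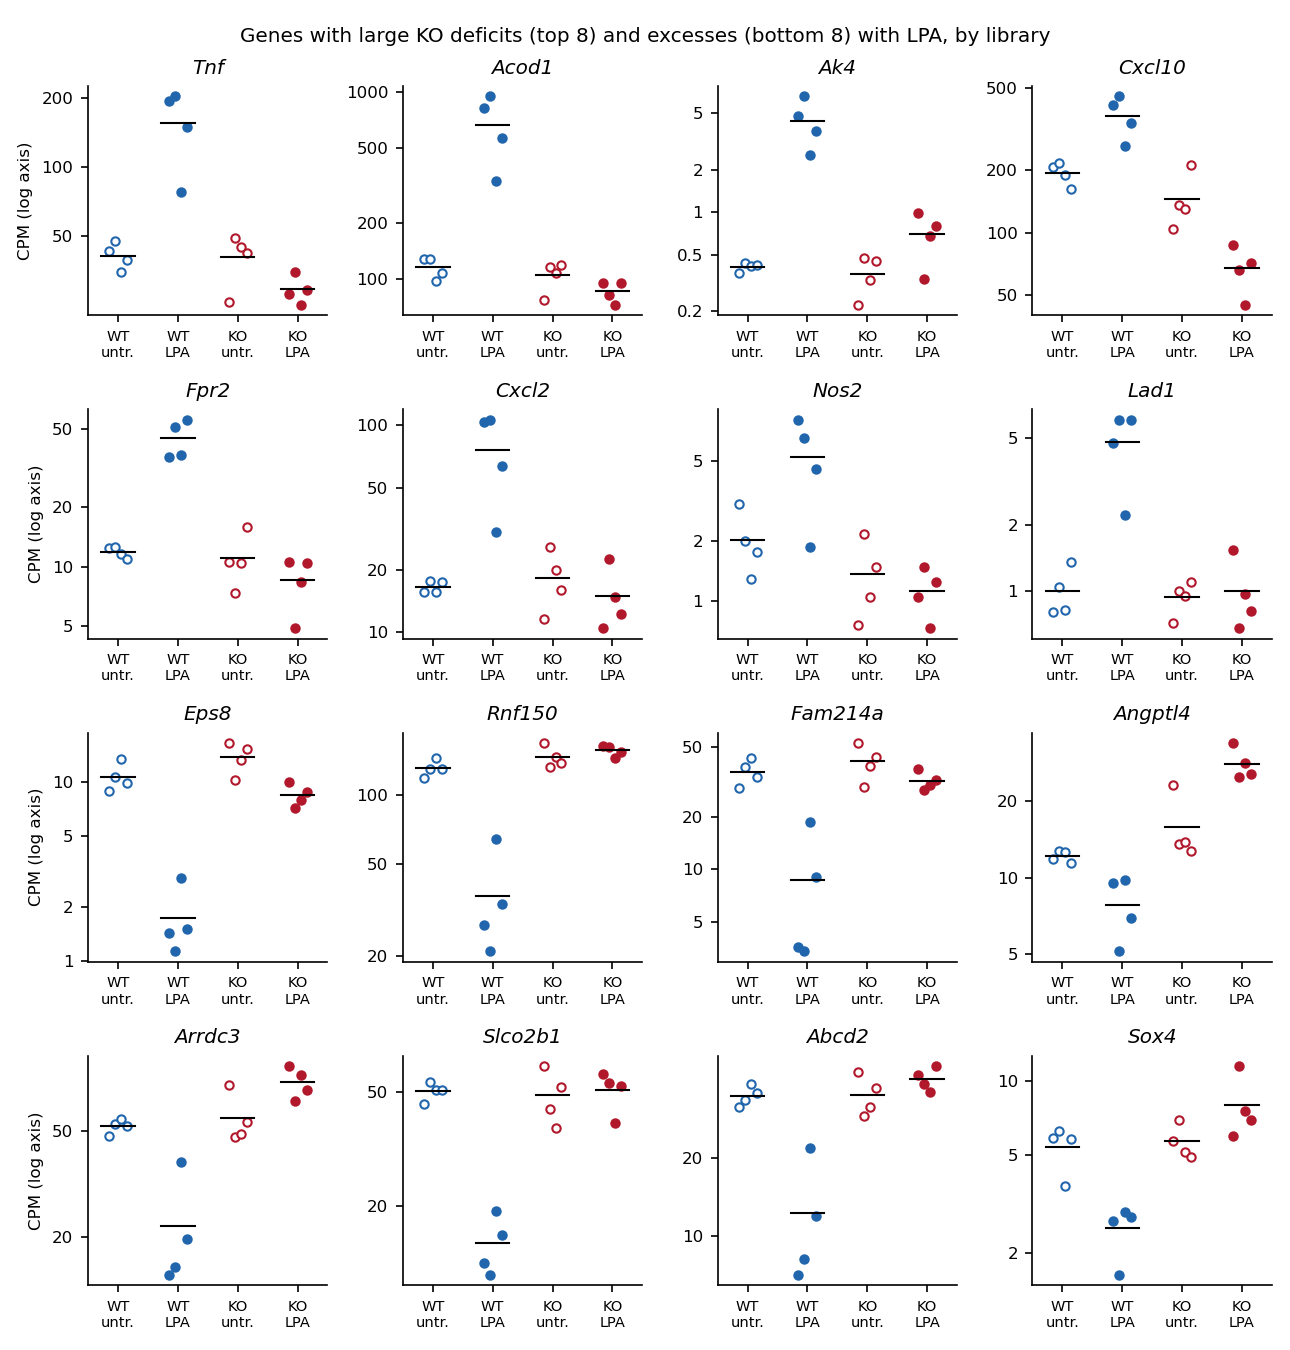
Each panel is 1 gene, with the level in CPM on a log axis and 1 point per library, for untreated (open) and LPA-treated (filled) cells of WT (blue) and KO (red). Bars are group means. By the choice of genes, the 4 KO libraries with LPA lie apart from the 4 WT libraries with LPA in each panel. The points of the untreated groups overlap or lie near each other.

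The untreated levels show where each group stood without LPA. The effect of LPA within a genotype uses the same LPA libraries as the comparison between genotypes, so its values are only set beside it. Tnf averaged 41.3 ± 5.36 CPM in untreated WT and 157 ± 57.5 CPM in WT with LPA, against 40.6 ± 10.1 and 29.4 ± 4.08 CPM in KO (mean ± SD, n = 4). Acod1 averaged 116 ± 15.3 and 667 ± 270.4 CPM in WT and 106 ± 19.1 and 86.6 ± 11.00 CPM in KO. Rnf150 showed the mirror image, at 129.9 ± 10.8 and 36.5 ± 19.1 CPM in WT and 145 ± 15.8 and 155 ± 8.22 CPM in KO. For some genes LPA had an effect in KO that passed the test. Cxcl10 averaged 145 ± 46.6 CPM in untreated KO and 67.1 ± 17.5 CPM in KO with LPA (log2 effect -1.11 ± 0.21, edgeR adjusted p = 0.0047). Angptl4 averaged 15.8 ± 4.96 and 28.2 ± 4.17 CPM there (0.83 ± 0.19, edgeR adjusted p = 0.0137). Same-numbered untreated and LPA libraries of a genotype deviated together, and with the replicate number as a block, a fit chosen after seeing the data, both effects kept their direction and passed the test (-1.12 for Cxcl10, edgeR adjusted p = 0.00543, and 0.86 for Angptl4, edgeR adjusted p = 0.000888).

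NF-kB targets and their feedback inhibitors were lower in KO almost throughout. Of 20 measured genes 18 were lower and none higher, against 25.9% of all genes called lower, and the median difference was -0.89 where that of all genes was 0.01. The feedback genes included Nfkbiz, which encodes the inhibitor-like protein IkB-zeta, at 90.4, 98.1, 91.6 and 124 CPM in WT and 42.5, 41.6, 37.8 and 40.3 CPM in KO (-1.32 ± 0.09, edgeR adjusted p = 1.77e-09). Nfkbia, the gene of the classic inhibitor IkB-alpha, averaged 223 CPM in WT and 112 CPM in KO (-0.99 ± 0.12), and Tnfaip3, which encodes the ubiquitin-editing enzyme A20, averaged 162 CPM in WT and 74.6 CPM in KO (-1.12 ± 0.11). Among effector targets, Sod2, the mitochondrial superoxide dismutase gene, was at 486, 567, 344 and 476 CPM in WT and 135, 153, 167 and 179 CPM in KO (-1.57 ± 0.13, edgeR adjusted p = 1.05e-08). Cd40, a co-stimulatory receptor gene, was at 96.7, 108, 63.8 and 95.8 CPM in WT and 26.9, 20.9, 25.3 and 27.4 CPM in KO (-1.85 ± 0.15, edgeR adjusted p = 1.05e-08). The kinase gene Ikbke, which links NF-kB to interferon signalling, differed less but just as cleanly (-0.91 ± 0.07, edgeR adjusted p = 6.92e-09). Of all 20 measured members, these 18 lay lower in KO without overlap, against 18.7% of all genes. That count is not independent of the calls, as called genes tend to separate. The members not called were Bcl3 (-0.21 ± 0.10, edgeR adjusted p = 0.0809) and Rel (-0.17 ± 0.08, edgeR adjusted p = 0.0729). On thinned counts 18 were called lower, and without WT replicate 3 19.

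Cytokine genes were split between called and uncalled. Of 17 measured, 9 were lower and none higher (median -0.68), against 25.9% and 24.4% of all genes. After Tnf came Il1rn, which encodes the IL-1 receptor antagonist, with 97.6 CPM in WT and 29.2 CPM in KO (-1.74 ± 0.29, edgeR adjusted p = 6.06e-05), and Tnfsf9, the gene of a TNF family ligand (-1.57 ± 0.21, edgeR adjusted p = 4.75e-06). Csf1, the gene of M-CSF itself, was at 15.3, 14.3, 10.5 and 11.5 CPM in WT and 6.14, 5.43, 5.79 and 5.14 CPM in KO (-1.20 ± 0.16, edgeR adjusted p = 3.91e-06). Il10, the anti-inflammatory cytokine gene, was lower too (-0.78 ± 0.18, edgeR adjusted p = 0.00131), and Il1b passed by a small margin (-0.68 ± 0.26, edgeR adjusted p = 0.0388). Il6 was near the limit of the table, with 0.690 CPM in WT and 0.400 CPM in KO, and did not pass (-0.84 ± 0.58, edgeR adjusted p = 0.236). Members named here beyond the 4 with the smallest adjusted p of a list were picked after their values were seen, here and in the lists that follow.

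Chemokines had a low median (-1.23, and -0.95 on thinned counts), with 15 of 21 lower and 1 higher, against 25.9% and 24.4% of all genes. Besides Cxcl10 and Cxcl2, Ccl5, which attracts T cells, was at 119, 119, 82.3 and 134 CPM in WT and 44.4, 43.9, 43.6 and 46.2 CPM in KO (-1.35 ± 0.16, edgeR adjusted p = 1.09e-06). Ccl4 (-1.78 ± 0.22) and Ccl3 (-1.20 ± 0.16), which encode inflammatory chemokines, overlap each other on chromosome 11, so their counts may not be separate. The monocyte attractant Ccl2 was scarce, with 5.60 CPM in WT and 1.84 CPM in KO (-1.61 ± 0.49, edgeR adjusted p = 0.00973). The exception was Cxcl14, a constitutively made chemokine, with 4.11 CPM in WT and 7.30 CPM in KO (0.83 ± 0.18, edgeR adjusted p = 0.000596).

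Interferon-stimulated genes were lower in 31 of 32, with no member higher and a median of -1.20, against 25.9% of all genes called lower. Of all 32 measured members, these 31 lay lower in KO without overlap, against 18.7% of all genes. Called genes tend to separate, so the count without overlap is not independent of the calls. The exception was Irf9, which encodes the DNA-binding subunit of the interferon-activated factor ISGF3 (-0.07 ± 0.05, edgeR adjusted p = 0.213). Ifit1, which encodes a protein that binds foreign RNA ends, was at 477, 535, 377 and 440.0 CPM in WT and 131, 141, 92.6 and 119 CPM in KO (-1.92 ± 0.17, edgeR adjusted p = 2.5e-08). Rsad2 was at 953, 1042, 631 and 751 CPM in WT and 216, 222, 143 and 182 CPM in KO (-2.15 ± 0.20, edgeR adjusted p = 7.07e-08). Both genes were highest in WT replicate 2 and lowest, within KO, in replicate 3. The RNA sensor genes Ifih1 (-1.34 ± 0.11, edgeR adjusted p = 1.49e-08) and Ddx58 (-1.19 ± 0.10, edgeR adjusted p = 2.11e-08) differed with little spread, and so did Parp14 (-0.99 ± 0.09, edgeR adjusted p = 4.07e-08). Isg15, a ubiquitin-like modifier gene, averaged 287 CPM in WT and 76.7 CPM in KO (-1.90 ± 0.22). The interferon gene Ifnb1 was barely detected, with 0.113 CPM in WT and 0.0243 CPM in KO, and was not called (-1.98 ± 0.94, edgeR adjusted p = 0.0811). On thinned counts 31 members of the list were called lower, and without WT replicate 3 31.

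In this list the untreated genotypes were not level either, although no member was called there: the untreated median was -0.28 and the one with LPS -0.26, against -1.20 with LPA. Ifit1 was -0.43 untreated and -0.13 with LPS. The departure of the LPA difference from the untreated one was called as lower in 30 of 32 genes, against 15.8% of all genes. The summed level of the list was 14628, 14862, 10970.0 and 12866 CPM in the WT libraries with LPA and 6413, 5827, 4755 and 5609 CPM in the KO libraries, which do not overlap. It ranged from 8006 to 9681 CPM in untreated WT and from 5133 to 9005 CPM in untreated KO. The Ifit, Oas and Gbp families hold near-identical copies, so counts of single members depend on how shared reads were treated.

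Letters of the interferon response element were common in front of these genes. The 250 bases before the gene start, taken from RefSeq (GRCm38.p6), were searched on both strands for 2 copies of GAAA with any 2 bases between them (GAAA-NN-GAAA), the core of that element, and for the kappa B motif, by which NF-kB binds. A promoter was found for 9210 of the tested genes. The first stood in 3.52% of them, in 15.5% of the genes at least 2-fold lower in KO (42 of 271), in 2.03% of those at least 2-fold higher (3 of 148) and in 52.2% of the interferon-stimulated genes (12 of 23). The kappa B motif stood in 5.43% of all, in 10.3% of the genes at least 2-fold lower, in 3.38% of those at least 2-fold higher and in 43.8% of the NF-kB list (7 of 16). A match is a string of letters, not evidence of binding, and matches that overlap were counted as present once per gene. No match of one motif overlaps a match of the other in the sequences shown. The promoters below, of genes that were 2.96- to 5.49-fold lower in KO, show such letters in capitals, 5′ to 3′ on the gene's strand. They lie at chr5:92348890-92349139 (minus strand, Cxcl10), chr19:34640639-34640888 (plus strand, Ifit1), chr12:26456453-26456702 (minus strand, Rsad2), chr4:156200819-156201068 (minus strand, Isg15) and chr17:13007589-13007838 (plus strand, Sod2).
Cxcl10: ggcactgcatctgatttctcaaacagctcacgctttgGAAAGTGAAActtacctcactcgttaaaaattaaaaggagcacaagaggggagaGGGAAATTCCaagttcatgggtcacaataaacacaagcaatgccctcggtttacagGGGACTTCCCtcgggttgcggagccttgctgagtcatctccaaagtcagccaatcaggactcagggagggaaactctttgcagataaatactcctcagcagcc
Ifit1: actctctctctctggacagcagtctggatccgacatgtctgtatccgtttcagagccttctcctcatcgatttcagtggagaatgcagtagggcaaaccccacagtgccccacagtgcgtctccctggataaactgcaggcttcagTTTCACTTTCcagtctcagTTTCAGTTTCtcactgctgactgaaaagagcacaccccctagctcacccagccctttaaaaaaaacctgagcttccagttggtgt
Rsad2: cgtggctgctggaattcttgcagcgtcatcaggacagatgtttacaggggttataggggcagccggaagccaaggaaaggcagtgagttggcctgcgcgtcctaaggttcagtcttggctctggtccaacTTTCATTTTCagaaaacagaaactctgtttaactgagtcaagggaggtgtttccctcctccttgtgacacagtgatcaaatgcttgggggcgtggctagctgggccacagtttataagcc
Isg15: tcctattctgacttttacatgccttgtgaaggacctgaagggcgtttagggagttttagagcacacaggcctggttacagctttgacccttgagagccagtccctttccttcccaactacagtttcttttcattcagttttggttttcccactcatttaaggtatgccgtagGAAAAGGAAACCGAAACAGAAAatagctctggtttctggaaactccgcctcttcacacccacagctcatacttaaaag
Sod2: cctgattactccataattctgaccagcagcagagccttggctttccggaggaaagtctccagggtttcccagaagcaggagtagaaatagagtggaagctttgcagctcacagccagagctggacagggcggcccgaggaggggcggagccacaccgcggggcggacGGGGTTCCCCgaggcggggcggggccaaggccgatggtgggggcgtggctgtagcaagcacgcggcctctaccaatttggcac
Cxcl10 carried both kinds of letters, an interferon element and 2 kappa B matches nearer to the gene start. Ifit1 held 2 interferon elements side by side, written as their reverse complement, and in Isg15 3 overlapping matches form 1 run. Rsad2 held 1 such element, also in reverse complement, and Sod2 1 kappa B match. Ifit2, Tnf and Acod1, with differences of -1.99 ± 0.20, -2.42 ± 0.23 and -2.94 ± 0.23, had neither set of letters in this window.

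**Figure D4:**
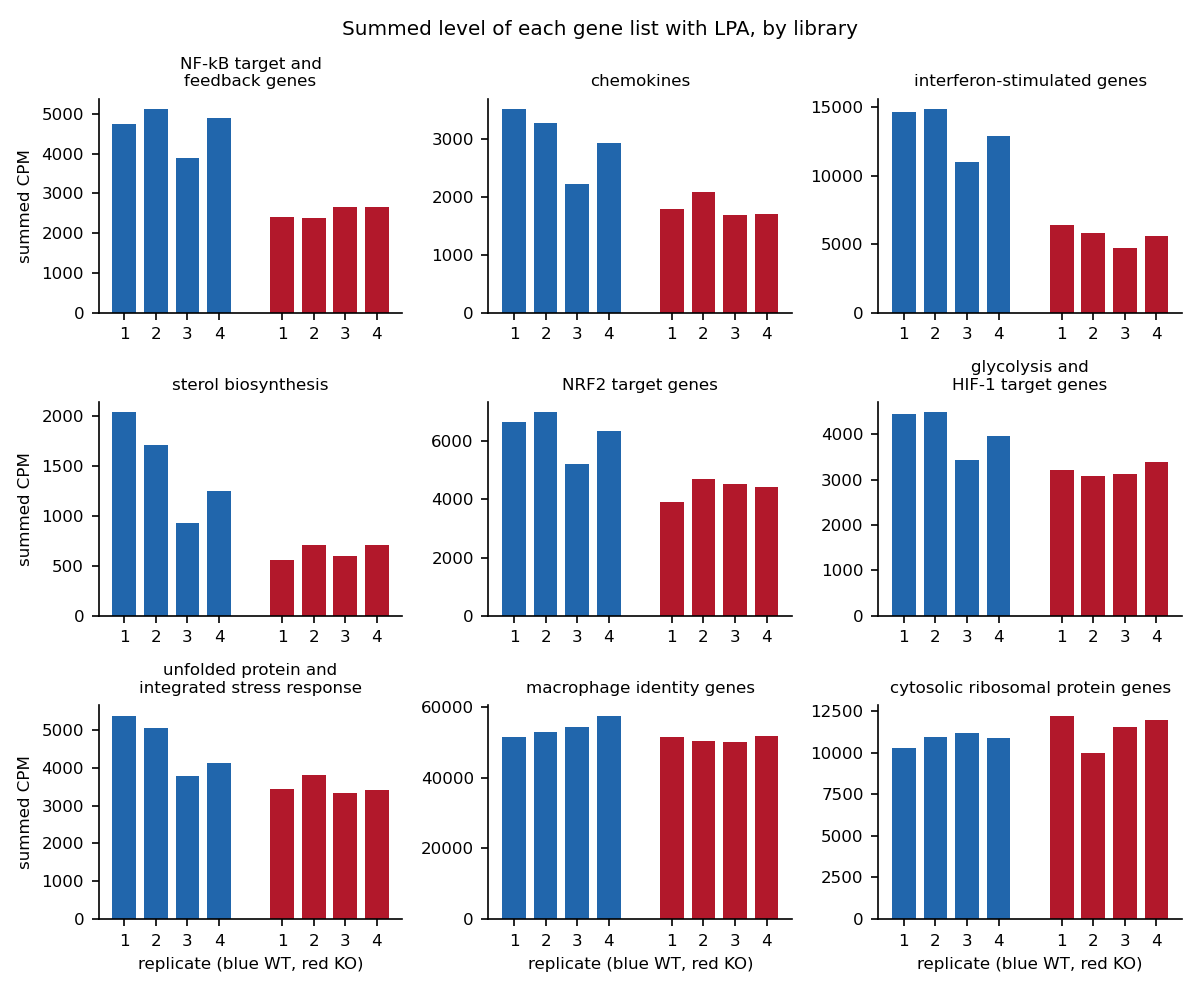
Bars give the summed CPM of all measured members of a list in each of the 8 LPA libraries, replicates 1 to 4 of WT (blue) and of KO (red), on axes that start at 0. WT replicate 3 has the lowest WT sum in the first 7 lists and still exceeds each KO library in 6 of them. The macrophage identity list lies between 50147 and 57597 CPM in all 8.

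Enzymes that feed inflammatory effector molecules were lower where they were called. Of 8 genes of itaconate, nitric oxide and arginine metabolism 4 were lower and none higher, against 25.9% and 24.4% of all genes. Beside Acod1 and Nos2 they were Gch1, which makes the cofactor of nitric oxide synthase, at 66.6, 61.95, 36.2 and 52.6 CPM in WT and 18.4, 21.8, 20.8 and 18.9 CPM in KO (-1.45 ± 0.15, edgeR adjusted p = 1.8e-07), and Ass1, which recycles citrulline to arginine (-0.87 ± 0.20, edgeR adjusted p = 0.00118). Odc1, Asl, Slc7a2 and Arg2 were not called (log2 -0.15 to 0.67).

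Glycolysis and HIF-1 target genes were lower in 18 of 23 (median -0.42), against 25.9% of all genes. The glucose transporter gene Slc2a1 was at 87.97, 99.5, 51.6 and 62.2 CPM in WT and 36.3, 32.5, 36.5 and 37.7 CPM in KO (-1.08 ± 0.14, edgeR adjusted p = 4.29e-06). Hk2, the inducible hexokinase gene, was at 82.9, 95.7, 73.4 and 78.7 CPM in WT and 55.4, 53.3, 57.4 and 59.4 CPM in KO (-0.55 ± 0.08, edgeR adjusted p = 7.25e-06). Pfkfb3, which makes the allosteric activator of phosphofructokinase, was at 71.4, 82.98, 72.9 and 87.3 CPM in WT and 46.7, 39.6, 42.3 and 42.9 CPM in KO (-0.87 ± 0.08, edgeR adjusted p = 1.95e-08). These 3 genes separated the groups fully. The late steps Pkm (-0.36 ± 0.09) and Ldha (-0.35 ± 0.10) were also lower. Vegfa, a HIF-1 target that encodes a vascular growth factor, was the 1 member called higher (0.52 ± 0.20, edgeR adjusted p = 0.0347), a call lost on thinned counts and without WT replicate 2 or 4 or KO replicate 1 or 3. Hif1a itself was not called (-0.23 ± 0.13, edgeR adjusted p = 0.124).

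NRF2 target genes, which defend against oxidants, were lower in 14 of 18, against 25.9% of all genes, and higher in none (median -0.52). The cystine transporter gene Slc7a11 was at 36.97, 45.3, 22.95 and 29.3 CPM in WT and 10.7, 14.2, 12.2 and 10.3 CPM in KO (-1.51 ± 0.24, edgeR adjusted p = 3.78e-05). Txnrd1, the thioredoxin reductase gene, was at 504, 558, 364 and 448 CPM in WT and 221, 279.6, 283 and 251 CPM in KO (-0.86 ± 0.12, edgeR adjusted p = 5.19e-06). Pgd, of the pentose phosphate pathway, differed by less with a small spread (-0.58 ± 0.06, edgeR adjusted p = 2.89e-07). Hmox1, the haem oxygenase gene, was lower with a wider spread (-0.49 ± 0.15, edgeR adjusted p = 0.00787).

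Stress genes of the endoplasmic reticulum and of the ATF4 pathway were lower in 15 of 21 (median -0.38), against 25.9% of all genes. Herpud1, of endoplasmic reticulum-associated degradation, was at 66.5, 72.1, 61.8 and 67.1 CPM in WT and 38.7, 42.6, 37.4 and 40.3 CPM in KO (-0.75 ± 0.08, edgeR adjusted p = 1.49e-07). Herpud1 was at 61.3 ± 6.48 CPM in untreated WT and 63.6 ± 4.31 CPM in untreated KO, so its KO level with LPA, 39.8 ± 2.23 CPM, was below both (mean ± SD, n = 4). Asns, the asparagine synthetase gene, was at 56.4, 61.2, 28.8 and 32.6 CPM in WT and 11.4, 21.3, 16.01 and 12.7 CPM in KO (-1.55 ± 0.27, edgeR adjusted p = 0.000109), and Atf4, the transcription factor that drives it, at 258, 244, 154 and 196 and 115, 142, 124 and 117 CPM (-0.78 ± 0.12, edgeR adjusted p = 2.65e-05). The member called higher was Ddit4, an inhibitor of mTOR signalling (0.80 ± 0.26, edgeR adjusted p = 0.0135), a call lost without WT replicate 1.

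Sterol biosynthesis was lower as a block: 20 of 23 genes were lower, against 25.9% of all genes, and none higher, with a median of -1.17. Hmgcs1, which encodes an early enzyme of the pathway, was at 228, 189.8, 104 and 128 CPM in WT and 60.02, 72.9, 62.4 and 74.7 CPM in KO (-1.27 ± 0.18, edgeR adjusted p = 1.37e-05). Insig1, which holds back the sterol-regulated factor SREBP, was at 114, 93.8, 56.8 and 68.6 CPM in WT and 31.6, 37.5, 34.3 and 38.4 CPM in KO (-1.23 ± 0.16, edgeR adjusted p = 5.01e-06). The KO libraries lay close together in both genes, while the WT libraries were spread widely. Srebf2, an SREBP gene, gave -1.03 ± 0.15, edgeR adjusted p = 1.71e-05, and Sqle, the squalene epoxidase gene, -1.66 ± 0.28, edgeR adjusted p = 7.15e-05. The genes not called were Dhcr7, Tm7sf2 and Ebp (log2 -0.31 to 0.08). On thinned counts 20 were called lower, and without WT replicate 3 21.

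LXR target genes, which export cholesterol, did not follow. Of 17 measured, 5 were higher and 6 lower (24.4% and 25.9% over all genes), with a median of -0.04 that became 0.07 when only library totals were used. The lower members were Scd2 (-1.37 ± 0.22, edgeR adjusted p = 4.78e-05), Fasn (-0.80 ± 0.18, edgeR adjusted p = 0.00122), Srebf1, Scd1, Lpcat3 and Nr1h3. Nr1h3, the LXR-alpha gene, was at 111, 103, 50.5 and 108 CPM in WT and 43.3, 52.3, 50.02 and 44.6 CPM in KO (-0.97 ± 0.20, edgeR adjusted p = 0.000531). WT replicate 3 lay inside the KO range for Nr1h3. The higher members were Arl4c (0.70 ± 0.10, edgeR adjusted p = 5.15e-06), Abca9, Apoc1, Pltp and Mylip, and 3 rather than 5 were called higher without WT replicate 2. The efflux transporter genes Abca1 (-0.03 ± 0.06, edgeR adjusted p = 0.722) and Abcg1 (-0.05 ± 0.09, edgeR adjusted p = 0.661) were not called.

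**Figure D5:**
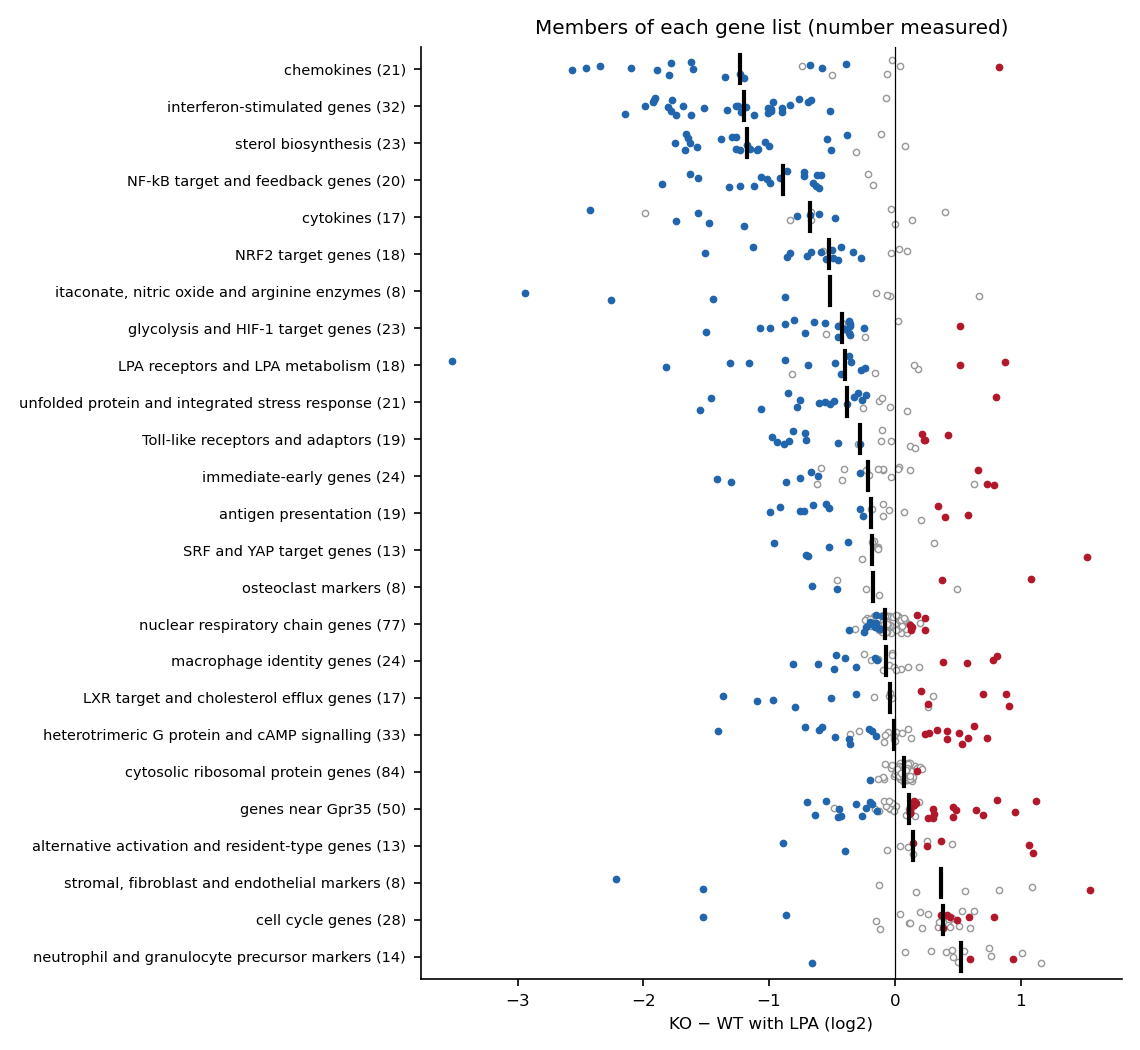
Each point is 1 gene and each line 1 gene list with its number of measured members, placed by the KO minus WT log2 difference with LPA (x axis). Filled blue points were called lower in KO, filled red points higher, open grey points were not called, and the black bars are list medians. The medians of chemokines, interferon-stimulated genes and sterol biosynthesis lie below -1. On thinned counts, which are not drawn, the chemokine median was -0.95.

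Immediate-early genes, which respond within minutes to hours of a signal, were mixed. Of 24, 7 were lower and 3 higher (median -0.22), where 25.9% of all genes were lower and 24.4% higher. Of 5 measured genes of dual-specificity phosphatases, which end MAP kinase signals, 3 were lower. Dusp2 was at 15.8, 15.1, 8.90 and 13.8 CPM in WT and 5.84, 4.81, 4.77 and 4.71 CPM in KO (-1.42 ± 0.17, edgeR adjusted p = 1.18e-06). Dusp4 (-1.30 ± 0.26) and Dusp1 (-0.87 ± 0.16) were lower too, while Dusp5 (0.63 ± 0.31, edgeR adjusted p = 0.0892) and Dusp6 (0.04 ± 0.12, edgeR adjusted p = 0.812) were not called. Myc, the growth factor-induced transcription factor gene, was lower as well (-0.75 ± 0.20, edgeR adjusted p = 0.00352), as were Egr1, Jun and Klf6. The higher ones were the orphan nuclear receptor genes Nr4a1 (0.79 ± 0.26, edgeR adjusted p = 0.0169) and Nr4a2 (0.73 ± 0.27, edgeR adjusted p = 0.0297) and Fosl2 (0.66 ± 0.22, edgeR adjusted p = 0.0165), calls that were lost without WT replicate 4 or KO replicate 1.

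Actin-linked targets of SRF and YAP were mixed. Of 13 measured, 5 were lower and 1 higher (median -0.18), against 25.9% and 24.4% of all genes. The share called, 46.2%, was not above the 50.3% of all genes, and the 7 members not called included Srf itself, Myh9 and Zyx. The listed targets Cyr61, Ctgf, Ankrd1, Tagln and Fhl2 were not among the deposited genes. Tpm4, a tropomyosin gene, was at 467, 534, 355 and 385 CPM in WT and 228, 222, 219.5 and 225 CPM in KO (-0.96 ± 0.09, edgeR adjusted p = 4.04e-08). Actb, the cytoplasmic actin gene often used as a reference, was at 6694, 6512, 5011 and 5752 CPM in WT and 3721, 3959.7, 3326 and 3809.7 CPM in KO (-0.69 ± 0.09, edgeR adjusted p = 2.14e-06), so the groups did not overlap for it either. Vcl (-0.70 ± 0.09), Flna (-0.52 ± 0.09) and Actg1 (-0.37 ± 0.08) were the other lower members, with the reservation that actin copies share sequence. The 1 member called higher was Thbs1, which encodes the matrix protein thrombospondin, with 379 CPM in WT and 1093 CPM in KO (1.53 ± 0.37, edgeR adjusted p = 0.00198). Without WT replicate 3, 8 members were called lower.

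Among LPA receptors and LPA-handling enzymes, 12 of 18 were lower and 2 higher (median -0.39), against 25.9% and 24.4% of all genes. The receptors went both ways. Lpar1 was at 10.8, 13.1, 5.84 and 8.98 CPM in WT and 3.07, 2.21, 2.24 and 3.38 CPM in KO (-1.82 ± 0.21, edgeR adjusted p = 9.79e-07), while Lpar6 was higher, with 93.4 CPM in WT and 171 CPM in KO (0.87 ± 0.16, edgeR adjusted p = 0.000123), and so was Lpar5 (0.52 ± 0.16, edgeR adjusted p = 0.00895). Lpar2 was not called (0.18 ± 0.19, edgeR adjusted p = 0.434). Of the enzymes, the endothelial lipase gene Lipg was at 3.78, 3.55, 1.39 and 2.29 CPM in WT and 0.149, 0.113, 0.243 and 0.428 CPM in KO (-3.52 ± 0.48, edgeR adjusted p = 7.93e-06). The lipid phosphatase gene Plpp1, whose product removes the phosphate of LPA, was lower (-1.31 ± 0.24, edgeR adjusted p = 0.000122), as was Agpat4, which acylates LPA (-1.16 ± 0.17, edgeR adjusted p = 1.27e-05).

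Downstream of such receptors, genes of heterotrimeric G proteins and cyclic AMP were balanced, with 10 of 33 higher and 10 lower (median -0.01), against 24.4% and 25.9% of all genes. Gng2 and Gng12 encode G protein gamma subunits and differed in opposite directions. Gng2 was at 92.7, 88.8, 109 and 90.9 CPM in WT and 157, 143, 139.9 and 150.2 CPM in KO (0.63 ± 0.07, edgeR adjusted p = 8.18e-07), and Gng12 at 159, 166, 153 and 175 and 111, 119, 102 and 105 CPM (-0.58 ± 0.06, edgeR adjusted p = 5.13e-08). Of the cyclic AMP phosphodiesterases, Pde4b was lower (-0.71 ± 0.10, edgeR adjusted p = 8.65e-06) and Pde7a higher (0.58 ± 0.09, edgeR adjusted p = 1.87e-05). Crem, a factor induced by cyclic AMP, was higher (0.74 ± 0.18, edgeR adjusted p = 0.00174). Among the genes of G protein alpha subunits, Gna12 was higher (0.42 ± 0.08, edgeR adjusted p = 0.000262), and Gna15 (-0.60 ± 0.14, edgeR adjusted p = 0.00105) and Gnai3 (-0.15 ± 0.05, edgeR adjusted p = 0.0173) were lower. Gnai2 (-0.06), Gnaq (0.01), Gnas (0.01), Gna11 (0.13) and Gna13 (-0.01) were not called.

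Genes that define the macrophage lay on both sides. Of 24 identity genes 8 were lower and 4 higher (25.9% and 24.4% over all genes), the median was -0.07, and it became 0.04 with library totals. Csf1r gave -0.02 ± 0.08, edgeR adjusted p = 0.854. Among the factors that set up the lineage, Spi1, a master regulator gene of myeloid cells, was at 411, 397, 292 and 413 CPM in WT and 242, 253, 254 and 243 CPM in KO (-0.61 ± 0.08, edgeR adjusted p = 4.1e-06), and Cebpa at 79.3, 66.6, 109 and 96.05 and 156, 150.3, 159 and 149 CPM (0.81 ± 0.11, edgeR adjusted p = 7.75e-06). They differed in opposite directions with no overlap. Mertk, a receptor for dying cells, was at 107, 103, 144 and 129 CPM in WT and 181, 176, 185 and 179 CPM in KO (0.58 ± 0.09, edgeR adjusted p = 3.86e-05). Fcgr3, an Fc receptor gene, was higher as well (0.78 ± 0.13, edgeR adjusted p = 6e-05). The lower members also included Adgre1 (-0.31 ± 0.07, edgeR adjusted p = 0.00167), Fcgr1 (-0.47 ± 0.14, edgeR adjusted p = 0.00725) and Aif1 (-0.48 ± 0.09, edgeR adjusted p = 0.000175).

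Pattern recognition genes were lower in 9 of 19 and higher in 4 (median -0.28), against 25.9% and 24.4% of all genes. Tlr2, a receptor for bacterial lipoproteins, was at 551, 620.0, 418 and 477 CPM in WT and 271, 247, 301 and 304 CPM in KO (-0.88 ± 0.09, edgeR adjusted p = 2.02e-07), and its partner Tlr1 gave -0.98 ± 0.09, edgeR adjusted p = 3.02e-08. Cd14, a co-receptor for LPS, was at 937, 1209, 975 and 997 CPM in WT and 685, 398, 628 and 642 CPM in KO (-0.81 ± 0.13, edgeR adjusted p = 4.35e-05), with KO replicate 2 the lowest. The adaptor gene Myd88 (-0.71 ± 0.08, edgeR adjusted p = 3.4e-07) and the brake Irak3 (-0.94 ± 0.08, edgeR adjusted p = 2.97e-08) were lower too. Tlr4 itself (0.12 ± 0.08, edgeR adjusted p = 0.22) and its partner Ly96 (0.16 ± 0.10, edgeR adjusted p = 0.168) were not called. The higher members were Tlr8, Tlr13, Irak4 and Ticam2 (0.22 to 0.42), and without WT replicate 2 or KO replicate 2 the number called higher was 2.

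Antigen presentation was mixed. Of 19 genes 9 were lower and 3 higher, against 25.9% and 24.4% of all genes. The class I regulator Nlrc5 was at 268, 262, 192 and 222 CPM in WT and 155, 105, 99.4 and 116 CPM in KO (-0.99 ± 0.14, edgeR adjusted p = 8.01e-06). The peptide transporter genes Tap1 (-0.92 ± 0.15, edgeR adjusted p = 3.38e-05) and Tap2 (-0.73 ± 0.11, edgeR adjusted p = 2.13e-05) and the immunoproteasome gene Psmb10 (-0.75 ± 0.12, edgeR adjusted p = 2.58e-05) were lower, as were Psmb8, Psmb9 and Tapbp. The class I genes themselves were not called: H2-K1 (-0.09 ± 0.09, edgeR adjusted p = 0.39), H2-D1 (0.07 ± 0.09, edgeR adjusted p = 0.541) and B2m (-0.09 ± 0.09, edgeR adjusted p = 0.39). H2-Aa, H2-Eb1, Cd80 and Cd86 were not called either. The higher members, Ciita (0.58 ± 0.24, edgeR adjusted p = 0.0459), H2-DMa (0.34 ± 0.13) and H2-DMb1 (0.40 ± 0.10), belong to class II, whereas the class II genes H2-Ab1 (-0.28 ± 0.11) and Cd74 (-0.25 ± 0.09) were lower. The 3 higher members became 1 without WT replicate 2, KO replicate 1 or KO replicate 4.

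Alternative activation and resident-type genes were higher in 5 of 13 and lower in 2, against 24.4% and 25.9% of all genes. Their median of 0.15 was 0.32 without KO replicate 2, 0.24 without WT replicate 3 and 0.25 with voom and group weights. Mrc1, the mannose receptor gene, was at 551, 569, 663 and 591 CPM in WT and 814, 731, 767 and 757 CPM in KO (0.37 ± 0.08, edgeR adjusted p = 0.000888), without overlap. The scavenger receptor gene Msr1 went the other way, at 534, 527, 327 and 403 CPM in WT and 239, 270.4, 243 and 216 CPM in KO (-0.89 ± 0.15, edgeR adjusted p = 4.45e-05). Il4ra (0.26 ± 0.06, edgeR adjusted p = 0.00222), Clec10a (1.10 ± 0.40, edgeR adjusted p = 0.0284), Cd163 (1.07 ± 0.43, edgeR adjusted p = 0.0417) and Stab1 (0.15 ± 0.06, edgeR adjusted p = 0.0341) were higher. On thinned counts 3 of these genes were called higher, and the number was 2 without WT replicate 4 or KO replicate 4 and 3 without WT replicate 1 or 2 or KO replicate 1.

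Markers of other cells that such a culture could hold were examined as well. Their part in the results was not tested, and in bulk RNA fewer cells of a type and less RNA per cell cannot be told apart. Neutrophil markers summed to 420.0, 461, 465 and 449 CPM in WT and 639, 375, 573 and 628 CPM in KO, where replicate 2 was the lowest. Of 14 such genes 2 were called higher, Cxcr2 and Mmp8, and 1 lower, Mmp9. The share called, 21.4%, was below the 50.3% of all genes. On thinned counts 0 were called higher, and without KO replicate 2 7 were. Without any other library except KO replicate 3 the number was 0 or 1, and the call of Mmp9 was lost without WT replicate 1 or 4 or KO replicate 1 or 4. Cell cycle genes summed to 575, 627, 763 and 492 CPM in WT and 700.3, 424, 639 and 805 CPM in KO, with broad overlap. Their median difference was 0.38 with LPA and 0.21 untreated, and that of the neutrophil markers 0.53 and 0.20. The cell cycle median with LPA rested on single libraries: it was 0.16 without KO replicate 4, 0.20 without WT replicate 4, 0.58 without WT replicate 3 and 0.60 without KO replicate 2. Of 28, 7 were higher, a share close to the 24.4% of all genes. They included Mcm2, Mcm7, Cdt1 and Mcm4 (0.44 ± 0.10, edgeR adjusted p = 0.000858), which license DNA replication, while Mcm3 (0.04), Mcm5 (0.20) and Mcm6 (0.12) of the same complex were not called. In the list 2 were lower, the cyclin genes Ccnd2 (-1.53 ± 0.30, edgeR adjusted p = 0.000322) and Ccnd1 (-0.86 ± 0.24, edgeR adjusted p = 0.0056). Without WT replicate 2 the number called higher was 4.

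Of the other marker lists few members were in the table, and the rest are not analysed here. Both measured T, NK and B cell markers, Cd4 and Cd79b, were not called, and the 1 measured mast cell marker, the histidine decarboxylase gene Hdc, was lower (-1.29 ± 0.20, edgeR adjusted p = 2.02e-05). The platelet chemokine genes Pf4 (-0.67 ± 0.11, edgeR adjusted p = 3.48e-05) and Ppbp (-1.23 ± 0.33, edgeR adjusted p = 0.00358) were lower, and Ppbp lost its call on thinned counts. Of 2 dendritic cell markers Kmo was higher (1.20 ± 0.28, edgeR adjusted p = 0.0014) and Itgax was not called. Stromal and endothelial markers summed to 45.1, 50.03, 44.99 and 46.7 CPM in WT and 43.6, 31.6, 38.4 and 40.1 CPM in KO. Among 8 of them Kdr and Cdh5 were lower and Pecam1, an adhesion gene also made by leukocytes, was higher, at 4.21, 4.15, 8.79 and 5.62 CPM in WT and 24.2, 7.29, 15.2 and 19.8 CPM in KO (1.55 ± 0.31, edgeR adjusted p = 0.000343). KO replicate 2 lay inside the WT range for Pecam1. The share of these 8 genes called was 37.5%, against 50.3% of all genes. Osteoclast markers were higher in 2 of 8 (Itgb3 1.08 ± 0.26, Nfatc1 0.38 ± 0.09) and lower in 2 (Mmp9 and Tnfrsf11a, -0.46 ± 0.09), shares close to the 24.4% and 25.9% of all genes.

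Housekeeping machinery showed small differences that moved with the scaling. Of 84 cytosolic ribosomal protein genes 1 was higher (Rpl22, 0.18 ± 0.06, edgeR adjusted p = 0.0101) and 1 lower (Rpl7l1, -0.20 ± 0.04, edgeR adjusted p = 0.000827), with a median of 0.08. With library totals 34 were called higher, and without KO replicate 2 17 were. Among 77 nuclear genes of the respiratory chain 12 were lower, such as Atp5b (-0.24 ± 0.06, edgeR adjusted p = 0.00246), and 6 higher, such as Sdhd (0.24 ± 0.04, edgeR adjusted p = 4.68e-05). With library totals these numbers became 1 and 18, and without 1 library the lower ones numbered 5 (WT replicate 1) to 35 (WT replicate 3). Both lists had a smaller called share (2.38% and 23.4%) than all genes (50.3%).

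The neighbourhood of the targeted gene was looked at separately, as the genes within 5 Mb of Gpr35 on chromosome 1. Of 50 measured, 20 were higher and 12 lower (64.0% called, against 51.3% on all of chromosome 1 and 50.3% of all genes). None other than Gpr35 was called in untreated cells. The clearest were Ube2f, a ubiquitin-like conjugation gene, at 62.8, 67.3, 54.7 and 61.8 CPM in WT and 38.1, 38.4, 40.7 and 41.4 CPM in KO (-0.64 ± 0.06, edgeR adjusted p = 5.94e-08), Ppip5k2 (-0.45 ± 0.06, edgeR adjusted p = 5.92e-06) and D2hgdh (0.49 ± 0.07, edgeR adjusted p = 1.32e-05). The 20 higher genes became 9 on thinned counts and 9 to 21 without 1 library (9 without WT replicate 1), and 5 of the 20 were Ugt1a isoform genes that share exons and so share reads.

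With LPS fewer genes separated the genotypes, and the libraries of that comparison are separate from those with LPA. Of the 5830 genes called with LPA and the 330 called with LPS, 202 were shared, 3.46% of the former and 61.2% of the latter, and 50.3% of all genes were called with LPA. The count with LPS was unstable, as given above. Of these, 120 (59.4%) were lower in both, 41 (20.3%) higher in both, and the remaining 41 (20.3%) went in opposite directions. One of the last set, Il4ra, the gene of an interleukin-4 receptor chain, was higher with LPA (0.26 ± 0.06) and lower with LPS (-0.29), an example chosen after its values were seen. Pfkfb3 was lower in both (-0.87 ± 0.08 with LPA, -0.55 with LPS), and so were Lipg (-3.52 ± 0.48 and -1.22) and the nucleoside transporter genes Slc28a2 (-1.23 ± 0.12 and -0.78) and Slc28a2b (-1.19 ± 0.15 and -0.82), which are close copies and may share reads. Higher in both were the sodium/proton exchanger gene Slc9a9 (0.46 ± 0.06 and 0.39), Dock1, which acts in engulfment (0.24 ± 0.06 and 0.34), the lysosomal galactosylceramidase gene Galc (0.40 ± 0.08 and 0.40) and the transporter gene Abcc3 (0.71 ± 0.08 and 0.41).

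The deficits of Tnf and Acod1 with LPA differed from their genotype differences with LPS, where both genes were far more abundant. Tnf averaged 2087 ± 141 CPM in WT and 2034 ± 332 CPM in KO with LPS (-0.04), and the difference between the LPA and LPS contrasts was -2.38 ± 0.31 (edgeR adjusted p = 3.26e-05). For Acod1 it was -2.87 ± 0.30 (edgeR adjusted p = 4.2e-06). Eps8 went the other way (3.05 ± 0.55, edgeR adjusted p = 0.000511), with 0.490 ± 0.159 CPM in WT and 0.285 ± 0.158 CPM in KO with LPS, close to the floor of the table.

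Calls depended on abundance in part. Over quartiles of the mean level the share called was 39.6% in the lowest, then 47.4%, 54.1% and 60.2% in the highest, and on thinned counts 25.8%, 37.1%, 46.7% and 56.8%. Direction followed abundance as well: the lowest quartile had 761 genes higher and 386 lower, the highest 560 higher and 1185 lower. Genes called lower had a median level of 46.9 CPM, genes called higher one of 19.3 CPM. By the gene lengths deposited with the counts, the higher genes were somewhat longer (median 3317 bases) than the lower (2846 bases) and the uncalled genes (2772 bases). The part of depth and gene length in these shares was not tested beyond the thinning.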

How the data were processed

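Polyadenylated RNA of the macrophages was made into libraries with a stranded mRNA kit and read as paired ends of 51 bases, per the labels' protocols. The authors deposited 1 table of whole-number read counts for 11590 genes in 24 libraries. The submitters' processing notes name STAR 2.5.2a and mm10, while the sources used here do not give the counting tool, the annotation or the use of strand. The smallest total over the 24 libraries of any gene was 170 counts, so rarely detected genes are not analysed here. Nothing else was filtered: the edgeR filter removed 0 genes.

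Counts were scaled by TMM and fitted with edgeR 4.0.16 (R 4.3.3) in a robust quasi-likelihood model with 1 mean for each of the 6 groups and 18 residual degrees of freedom. All groups shared 1 estimate of the spread, with a common coefficient of variation between libraries of 9.91%. Estimated by group, it was largest in WT with LPA, at 13.7%, and 8.96% in KO with LPA. With only the 8 LPA libraries 4761 genes were called. Called genes passed 0.05 after Benjamini-Hochberg adjustment over all 11590 genes, and adjusted p-values without another tool's name are from edgeR. Standard errors are the log2 difference divided by the square root of F. Alternatives were DESeq2 1.42.0, limma 3.58.1 (voom with group weights), other scalings and filters, only the 8 LPA libraries, counts thinned to 15167683, a replicate block and leaving out each library. The scripts were tested on simulated counts.

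Genes were named by rule: Gpr35, Tnf, the 12 largest deficits and 12 largest excesses without overlap at a mean of at least 2 CPM, the members ranking in the first 4 by p in each of 29 lists, the 4 largest each way in each test of a difference between genotype effects, genes called untreated, and 4 each way called with both LPA and LPS. The comparison, the lists and the rule were chosen with earlier results of these data known. Positions and promoters came from RefSeq (GRCm38.p6), which placed 11562 genes. Gene lengths are those deposited with the counts. Replicate numbers did not pair the genotypes: same-numbered KO and WT libraries with LPA deviated with correlations of -0.298 to 0.177. Within a genotype, same-numbered untreated and LPA libraries did deviate together, with correlations of 0.211 to 0.626 in WT and 0.28 to 0.772 in KO. The same number gave the best match except for KO replicate 1 (0.347). The numbers thus appear to pair most of these libraries, and the tests that use both were repeated with that block. For LPS and LPA libraries the lowest correlation was 0.0692, in WT replicate 1, where the same number was not the best match. Some members of the lists are counted in them but not reported here by name.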

Additional observations from a re-analysis of the deposited data

Results flagged for a closer look

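Single libraries stood apart from the other 3 of their group in 11 of 266 groups of 4 values checked, where chance alone flags about 1 in 20. KO replicate 1 accounts for 4 of these: Tnfsf9 was lowest there at 1.54 CPM, Dusp2 highest at 5.84 CPM, Me1, the malic enzyme gene, at 2.77 CPM, and Psmb10 at 116 CPM. KO replicate 2 stood apart for Hdc (0.905 CPM) and Rpl22 (116 CPM), and KO replicate 4 for Pgk1, a glycolytic kinase gene (71.7 CPM). WT replicate 3 stood apart for Nr1h3 (50.5 CPM), Spi1 (292 CPM) and Cox5a, a respiratory chain gene (69.5 CPM), and WT replicate 2 for Rpl39 (56.7 CPM).

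The genotype difference with LPA departed from the untreated one in 3301 genes by edgeR's interaction test. The departures furthest below 0 at 2 CPM or more were those of Acod1 (-2.81), Cxcl2 (-2.48), Ak4 (-2.46) and Tnf (-2.39), and the ones furthest above 0 those of Rnf150 (1.93), Eps8 (1.91), Slco2b1 (1.83) and Fam214a (1.71), on the log2 scale. It departed from the difference with LPS in 2736 genes, with Acod1 at -2.87, Ak4 at -2.85, Cxcl2 at -2.50 and Tnf at -2.38, and on the other side Eps8 at 3.05, Lmln at 2.10, Abcd2 at 1.93 and Cbx2 at 1.81.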

How the results depend on the processing

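The count of genes called between KO and WT with LPA (5830) stayed within 1.5 times under all alternatives run, from 4204 with the replicate block to 6624 without WT replicate 3. Without 1 library of the LPA groups it ranged from 4790 to 6624. DESeq2 called 5953 genes, median-ratio size factors 5814, library totals 6222, a filter of 50 counts in 4 libraries 5749, the 8 libraries alone 4761, limma with group weights 5350 and thinned counts 4820. The numbers of the replicates pair no animals by the labels, and of the genes called with the replicate block 4162 were among the 5830. For KO against WT this block was fitted on the 8 libraries of each comparison alone, with fewer residual degrees of freedom. Its counts therefore do not show the block by itself. The difference between the LPA and untreated genotype effects (3301 genes) was called in 2259 to 4632 genes without 1 library and in 2383 on thinned counts. With the replicate block within each genotype it was called in 4328 genes, and the difference between the LPA and LPS genotype effects (2736) in 3575, so the block ended neither. Of the counts, that of genes called, KO against WT with LPS (330) moved beyond 1.5 times: DESeq2 called 581, thinned counts 175 and the replicate block 0, and without 1 library it ranged from 65 to 577. It was 65 without WT replicate 3 of the LPS group, 74 without KO replicate 3, 160 without WT replicate 2, 190.0 without KO replicate 4 and 577 without WT replicate 1. The cause was not tested. No count and no called gene among those named changed direction, but with library totals the calls went from 2823 higher and 3007 lower to 4196 and 2026. The medians of 4 lists then changed sign: LXR targets (-0.04 to 0.07), macrophage identity (-0.07 to 0.04), G protein signalling (-0.01 to 0.09) and the respiratory chain (-0.08 to 0.02). Genes lost from or added to the calls among the named ones were mostly marker and ribosomal genes (such as Mpo, Cd4, Rpl39 and Cox5a), and none was among the 24 leading genes. Depth limits the rarest genes: in the lowest quartile of abundance the share called was 39.6% and 25.8% on thinned counts.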
